A study of Homo sapiens with 3 samples.

Results

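The transcriptome of HGC-27 cells that had received an siRNA against IRF3 was compared directly with that of HGC-27 cells that had received an siRNA against YAP. HGC-27 is an established human line, labelled as gastric cancer cells. Both libraries came from cells at passage 6, taken 48 h after transfection, and a further library came from cells given a control siRNA (n.c.) under the same labels. With a single library (n = 1) behind each condition, differences could not be set against the spread of replicates, and no test or p-value is given. The siRNA sequences, the number of siRNAs per target and any protein measurement were not used here. All genes with a mean of at least 1 FPKM (fragments per length of transcript and depth of the library) over the 2 knockdown libraries were compared. These were 10864 of the 50868 genes counted (21.4%). The control library took no part in choosing genes or in the ratio, and its values are given only to show where the control stood.

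IRF3 is a transcription factor that is phosphorylated downstream of sensors of foreign nucleic acid and then switches on type I interferon and antiviral genes. YAP, encoded by YAP1, is a transcriptional coactivator that binds TEAD factors at growth and adhesion genes and is kept out of the nucleus by the Hippo kinase cascade. RNA interference cuts or represses the transcript that matches the siRNA, so the transcript of each targeted gene is the first value to read.

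Counts assigned to genes came to 14941556 with IRF3 siRNA, 14385959 with YAP siRNA and 13949401 with control siRNA, and 10854 to 11498 genes per library reached 1 FPKM. Markers of the labelled cell type were read in the same libraries. Of 12 epithelial markers, 1 (CLDN7) reached 1 FPKM, and CDH1, EPCAM, KRT8 and KRT18 stayed under 1 FPKM in all 3 libraries. Of 6 mesenchymal markers 4 reached 1 FPKM, led by VIM, which stood at 451 FPKM with IRF3 siRNA and 469 with YAP siRNA. Of 9 fibroblast markers 8 reached 1 FPKM, with summed levels of 760 FPKM with IRF3 siRNA, 793 with YAP siRNA and 883 with control siRNA. Of 6 leukocyte markers 1 did, and of 4 endothelial markers none did. Most epithelial markers were thus near 0 in cells labelled as gastric cancer cells, in all 3 libraries.

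Both targeted transcripts were lower in the library of their own siRNA than in the other knockdown, by less than 1.5-fold on the scale used here. YAP1 (ENSG00000137693, chromosome 11, 102110461 to 102233423, build hg38) had 5.89 FPKM with control siRNA, 3.58 with IRF3 siRNA and 2.23 with YAP siRNA. Its log2 ratio of IRF3 siRNA over YAP siRNA was 0.50, and its ratio of counts per library total was 1.60 (95% counting interval 1.40 to 1.84). YAP1 was thus lowest with YAP siRNA, but it was also lower with IRF3 siRNA than in the control. IRF3 (ENSG00000126456, chromosome 19, 49659569 to 49665875) stood at 3.55 FPKM with control siRNA, 2.90 with IRF3 siRNA and 3.86 with YAP siRNA. Its log2 ratio was -0.32 and its count ratio 0.752 (0.675 to 0.838). Some IRF3 exon sequence is also exon sequence of BCL2L12, which is transcribed from the other strand, and whether strand was used in counting is not stated. Summing the counts of IRF3 and BCL2L12 gave a log2 ratio of -0.19. Relative to the control library, IRF3 counts in the IRF3 siRNA library were at 0.818 (0.732 to 0.915), a smaller difference than that of YAP1 in the same library at 0.608 (0.546 to 0.677). The label of the IRF3 siRNA library is therefore only weakly checked by its target.

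The knockdown libraries were close to each other for most genes. The log2 ratio, taken from FPKM plus a pseudocount of 1 as IRF3 siRNA over YAP siRNA, had a median of -0.01 over the 10864 genes and lay between -0.43 and 0.41 for the central 95%. Its SD over these genes was 0.25. At least 2-fold higher with IRF3 siRNA were 36 genes (0.331% of those compared), and 36 (0.331%) were at least 2-fold lower. At 1.5-fold the counts were 134 higher (1.23%) and 144 lower (1.33%), together 278 (2.56%). The 2-fold genes of either direction were 72 (0.663%). The pseudocount shrinks the ratios of genes with low levels. For each count below of members of a gene list past 1.5-fold, 2.56% is the share over all genes. All gene lists were drawn up with earlier results of these data known.

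**Figure D1:**
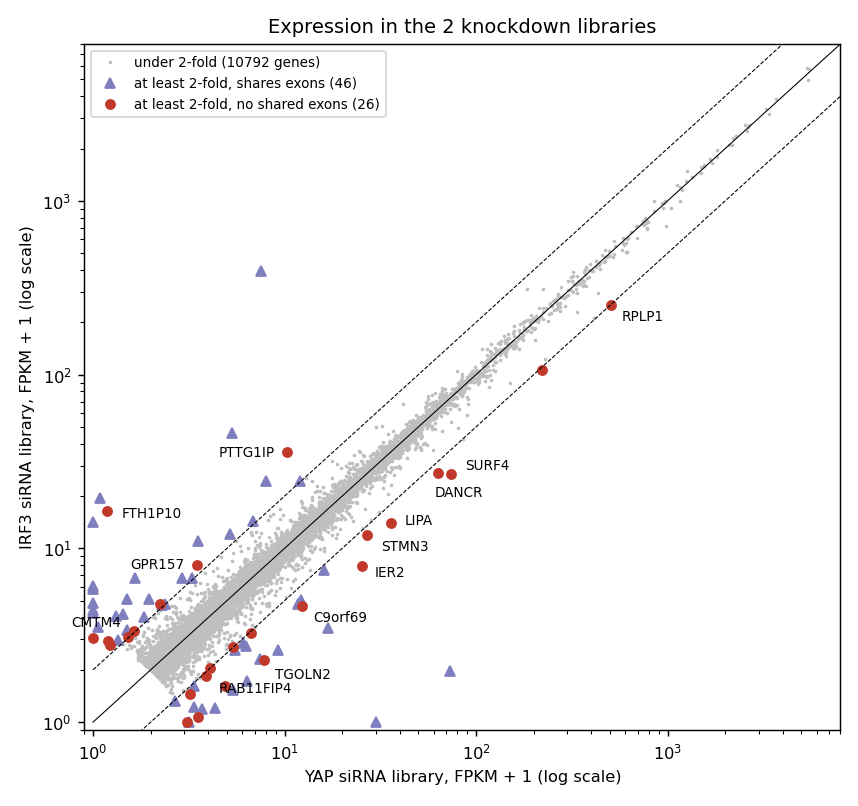
FPKM + 1 of each compared gene in the YAP siRNA library (horizontal, log scale) and in the IRF3 siRNA library (vertical, log scale); the solid line marks equal levels and the dashed lines 2-fold. Of the 72 genes past 2-fold, 46 share exon sequence with another counted gene (triangles), and named genes such as TGOLN2, IER2, SURF4, LIPA and PTTG1IP do not (circles).

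Much of the 2-fold set was made of genes whose reads could be assigned to a partner. Of the 72 genes, 46 (63.9%) shared exon sequence with another counted gene on either strand, beside 32.3% of all genes compared. Protein-coding were 40 (55.6%), beside 84.7% of all. In 28 of the 72, and in 129 of the 278 past 1.5-fold, both libraries had under 100 counts. The share of all genes with such counts is not given here, so these numbers only describe the genes past each fold. Protein-coding genes with no shared exons and a standard symbol made up 3 of the 36 higher and 8 of the 36 lower genes. Their share of all genes is not given here either. The higher ones were PTTG1IP, GPR157 and CMTM4. The lower ones were TGOLN2, IER2, SURF4, C9orf69, LIPA, STMN3, RAB11FIP4 and RPLP1. At 1.5-fold there were 28 such genes higher and 39 lower.

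Among the largest differences were genes of the secretory pathway and the lysosome that were lower with IRF3 siRNA. TGOLN2 (ENSG00000152291, chromosome 2, 85318020 to 85328425), which encodes a membrane protein that cycles between the trans-Golgi network and the cell surface, stood at 9.80 FPKM with control siRNA, 1.27 with IRF3 siRNA and 6.80 with YAP siRNA. Its log2 ratio was -1.78 and its count ratio 0.186 (0.166 to 0.208), from 383 counts with IRF3 siRNA and 1983 with YAP siRNA. SURF4 (ENSG00000148248, chromosome 9, 133361449 to 133376166), a receptor that loads soluble cargo for export from the endoplasmic reticulum, stood at 73.3, 25.8 and 73.2 FPKM in the same order. The log2 ratio of SURF4 was -1.47 and its count ratio 0.352 (0.338 to 0.368). For SURF4 the control and the YAP siRNA library were level and the IRF3 siRNA library stood apart. CNIH1, a cargo receptor of the same export step, stood at 16.1, 9.06 and 15.1 FPKM, a log2 ratio of -0.68. M6PR, the cation-dependent mannose 6-phosphate receptor that sorts lysosomal enzymes, had a log2 ratio of -0.76 but shares exons with PHC1, and their summed counts gave -0.60.

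Those 4 genes were the members past 1.5-fold among 48 compared of a list of 53 trans-Golgi proteins and cargo receptors. All 4 were lower with IRF3 siRNA, while 1.33% of all genes compared were at least 1.5-fold lower. The list was drawn up with earlier results of these data known, so the count is no independent support. The list as a whole did not move with these 4 genes. Its median log2 ratio was -0.02, beside -0.01 for all genes, with 21 members above and 27 below the median of all genes. The COPI and COPII coats and ARF GTPases, which form transport vesicles, had no member of 38 past 1.5-fold and a median of -0.02. SAR1A (0.36) and COPG2 (-0.26) were among its outermost members. ER chaperones and folding enzymes had a median of -0.07, with 27 of 44 below the median of all genes and none past 1.5-fold, from HERPUD1 at -0.29 to HYOU1 at 0.35. With the trend in GC content, length and level taken out, that median was -0.06.

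LIPA (ENSG00000107798, chromosome 10, 89213569 to 89414557), the acid lipase that frees cholesterol from its esters in lysosomes, stood at 33.5 FPKM with control siRNA, 13.0 with IRF3 siRNA and 34.8 with YAP siRNA. LIPA had a log2 ratio of -1.35, and its count ratio was 0.375 (0.352 to 0.399). Again the IRF3 siRNA library was the low one, and control and YAP siRNA were close. Past 1.5-fold (2.56% of all genes), LIPA was the single member among 51 compared lysosomal enzymes, membrane proteins and proton pump subunits. Of these, 36 were below and 15 above the median of all genes, and the list median was -0.04 (-0.06 with the trend removed). CTSK, a lysosomal protease, had -0.40, and ATP6V1A, a subunit of the proton pump, had 0.36. Cholesterol and fatty acid synthesis genes, which respond to sterol supply, had a median of -0.03 and no member of 31 past 1.5-fold. MSMO1 (-0.35), EBP (-0.36) and FDFT1 (-0.31) were lower with IRF3 siRNA and MVD (0.31) higher, all within 1.5-fold.

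RAB11FIP4, an effector of RAB11 on recycling endosomes, was named after its values were seen. It stood at 2.94, 0.834 and 2.90 FPKM with control, IRF3 and YAP siRNA, a log2 ratio of -1.09 (count ratio 0.288, interval 0.246 to 0.335). C9orf69 (ENSG00000238227, chromosome 9, 136114581 to 136118863) stood at 12.3, 3.68 and 11.4 FPKM, a log2 ratio of -1.40. Both had the pattern of SURF4 and LIPA, low in the IRF3 siRNA library alone. The signal recognition particle subunit SRP14, which acts where secretory proteins enter the ER and was also named after its values were seen, went the other way. It stood at 43.5, 48.7 and 29.2 FPKM, a log2 ratio of 0.72.

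Single genes of the cytoskeleton were also lower with IRF3 siRNA. STMN3 (ENSG00000197457, chromosome 20, 63639705 to 63657682), of the stathmin family of microtubule regulators, stood at 23.3 FPKM with control siRNA, 11.01 with IRF3 siRNA and 25.9 with YAP siRNA, a log2 ratio of -1.16. The actin-binding coronin CORO1C stood at 11.6, 4.27 and 9.22 FPKM, a log2 ratio of -0.95 (count ratio 0.464, interval 0.426 to 0.504). TAGLN2, an actin-bundling protein of the transgelin family, stood at 143, 88.1 and 149 FPKM, a log2 ratio of -0.75. In these 3 genes the IRF3 siRNA library was the lowest. CORO1C and TAGLN2 were the members past 1.5-fold among 45 compared actin and SRF target genes, beside 2.56% of all genes. The median of that list was -0.02, and it was drawn up with earlier results of these data known. The profilin gene PFN2 (-0.56) and the ARP2/3 subunit gene ACTR2 (0.56) stayed within 1.5-fold in opposite directions. KANK2, an adaptor at focal adhesions named after its values were seen, had -0.73.

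Integrins and focal adhesion proteins had a median of 0.07 over 29 compared, with 18 above the median of all genes and none past 1.5-fold. ITGA5, the alpha subunit of the fibronectin receptor, stood at 33.7 FPKM with control siRNA, 44.7 with IRF3 siRNA and 33.8 with YAP siRNA, a log2 ratio of 0.39. Its partner ITGB1 stood at 16.3, 10.7 and 12.9 FPKM, a log2 ratio of -0.25. The 2 subunits of that receptor therefore differed in direction. Extracellular matrix genes had a median of 0.00 over 47 compared and none past 1.5-fold, from P4HA1 at -0.41 to FSTL1 at 0.38. Of 15 compared EMT factors and mesenchymal markers, 1 passed 1.5-fold, beside 2.56% of all genes. This was THY1, a surface glycoprotein of fibroblasts and other cells, at 7.03, 14.5 and 8.88 FPKM and a log2 ratio of 0.65, highest in the IRF3 siRNA library. In bulk RNA, fewer cells of a type and less RNA per cell cannot be told apart. EMP1, a tetraspan membrane protein named after its values were seen, stood at 1.17, 2.40 and 1.17 FPKM (log2 ratio 0.65).

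**Figure D2:**
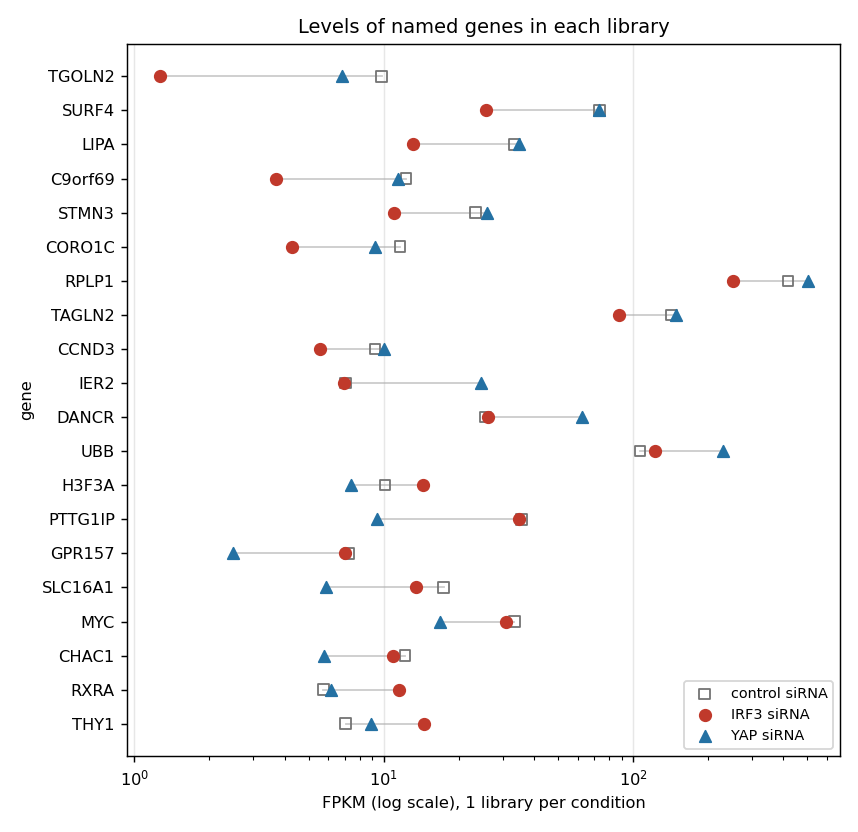
FPKM (log scale) of 20 named genes in each of the 3 libraries, 1 point per library: squares, control siRNA; circles, IRF3 siRNA; triangles, YAP siRNA. From TGOLN2 to CCND3 the IRF3 siRNA library is the low one; from IER2 to UBB and from PTTG1IP to CHAC1 the YAP siRNA library stands apart; RXRA and THY1 are highest with IRF3 siRNA.

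Several of the genes with the highest ratios of IRF3 siRNA over YAP siRNA were low in the YAP siRNA library alone. PTTG1IP (ENSG00000183255, chromosome 21, 44849585 to 44873903), whose product binds securin and helps carry it into the nucleus, stood at 35.6 FPKM with control siRNA, 34.9 with IRF3 siRNA and 9.36 with YAP siRNA. This gave a log2 ratio of 1.79, and its count ratio was 3.73 (3.46 to 4.01). Here the control and IRF3 siRNA libraries were level and the YAP siRNA library was low. PTTG1, which encodes securin itself, stood at 66.0 FPKM with IRF3 siRNA and 66.9 with YAP siRNA, a log2 ratio of -0.02. CDCA5, which encodes sororin, the protein that holds cohesin on replicated chromatids, had a log2 ratio of 0.72, at 7.39, 11.3 and 6.50 FPKM. PTTG1IP and CDCA5 were the members past 1.5-fold among 10 compared genes of the securin, separase, PTTG1IP and cohesin list, whose median was 0.01. Of all genes 2.56% passed 1.5-fold, and the list was drawn up with earlier results of these data known.

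GPR157, an orphan G protein-coupled receptor, stood at 7.25, 6.997 and 2.48 FPKM with control, IRF3 and YAP siRNA, a log2 ratio of 1.20. CMTM4, a membrane protein of the MARVEL family, stood at 0.973, 2.36 and 0.633 FPKM, a log2 ratio of 1.04. Both were named after their values were seen. GPR157 was low with YAP siRNA and CMTM4 was high with IRF3 siRNA, so a like log2 ratio came from different libraries. SLC16A1 (ENSG00000155380, chromosome 1, 112911847 to 112957013), the monocarboxylate transporter that carries lactate across the plasma membrane, stood at 17.4, 13.4 and 5.86 FPKM. The transporter's log2 ratio was 1.07 and its count ratio 2.29 (2.11 to 2.49), and its counts summed with SLC16A1-AS1 gave 0.98. Along with NDRG1, it was past 1.5-fold among 47 compared genes of glycolysis, lactate transport and hypoxia, beside 2.56% of all genes. The list median was 0.02. GPI, a glycolytic enzyme, stood at 119, 149 and 119 FPKM, a log2 ratio of 0.32.

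MYC, the growth-promoting transcription factor, was among the genes low with YAP siRNA. It stood at 33.4 FPKM with control siRNA, 30.8 with IRF3 siRNA and 16.8 with YAP siRNA, a log2 ratio of 0.84 (count ratio 1.84, interval 1.75 to 1.94). The remaining 10 compared genes of the MYC, MAX and MXD network lay between -0.08 and 0.13, with the partner MAX at 0.07. MYC activates genes that build ribosomes, through the E-box motif to which it binds with MAX. Of 60 listed ribosome biogenesis and nucleolar genes, 59 were compared and none passed 1.5-fold. Their median was 0.09, with 44 above and 15 below the median of all genes, and the range ran from -0.15 to 0.49. With the trend in GC content, length and level taken out, the median was 0.08, again with 44 above. A higher median of MYC-dependent growth genes in this contrast was known when the list was drawn up, so the count is no independent support for the direction.

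The members with the largest ratios were single genes of low or middling level. NOP58, a core protein of box C/D small nucleolar RNPs, stood at 3.91, 4.13 and 2.75 FPKM, a log2 ratio of 0.45. PPAN, a factor of large subunit assembly, had 0.49, which became 0.18 when summed with the P2RY11 genes whose exons it shares. LTV1, a factor of small subunit export, had 0.40 from 80 counts with IRF3 siRNA against 52 with YAP siRNA, and 0.07 when summed with its overlapping gene. The genes for the proteins of the ribosome itself were not shifted in the same way. Cytosolic ribosomal protein genes had a median of -0.01 over 80 compared, with 38 above and 42 below the median of all genes. RPLP1, an acidic protein of the ribosomal stalk, was the single one past 1.5-fold, at 419 FPKM with control siRNA, 251 with IRF3 siRNA and 503 with YAP siRNA. Its log2 ratio was -1.003 and its count ratio 0.498 (0.488 to 0.507), on the edge of 2-fold.

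The E-box letters CACGTG were looked for from 250 bases before to 50 after each gene's start, on a motif that reads the same on both strands. Of the ribosome biogenesis genes, 50 had a RefSeq promoter entry, and 20 of these (40%) held the motif, beside 807 of 7820 (10.3%) of all compared genes with an entry. The median log2 ratio was 0.07 for members with the motif and 0.10 for those without. Over all genes with an entry it was 0.0094 with the motif and -0.0059 without. Shown are the 250 bases upstream of the 3 members with the highest ratios among those whose only E-box lies wholly before the start, with the E-box in capitals (RefSeq, GRCh38.p14, 5′ to 3′ on the gene's strand). NAT10, an RNA acetyltransferase of the nucleolus, is at chr11:34105379-34105628 on the plus strand, EBNA1BP2, a factor of large subunit assembly, at chr1:43172571-43172820 on the minus strand, and CIRH1A, a factor of small subunit processing, at chr16:69132399-69132648 on the plus strand.
NAT10: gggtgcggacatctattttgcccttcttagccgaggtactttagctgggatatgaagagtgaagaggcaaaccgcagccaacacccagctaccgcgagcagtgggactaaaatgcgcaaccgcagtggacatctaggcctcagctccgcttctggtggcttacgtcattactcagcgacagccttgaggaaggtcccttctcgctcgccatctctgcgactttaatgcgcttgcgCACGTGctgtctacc
EBNA1BP2: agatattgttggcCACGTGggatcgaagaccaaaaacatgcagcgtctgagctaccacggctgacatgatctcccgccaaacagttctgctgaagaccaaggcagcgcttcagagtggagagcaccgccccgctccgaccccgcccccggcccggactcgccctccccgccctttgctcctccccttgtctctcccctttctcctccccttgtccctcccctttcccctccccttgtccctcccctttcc
CIRH1A: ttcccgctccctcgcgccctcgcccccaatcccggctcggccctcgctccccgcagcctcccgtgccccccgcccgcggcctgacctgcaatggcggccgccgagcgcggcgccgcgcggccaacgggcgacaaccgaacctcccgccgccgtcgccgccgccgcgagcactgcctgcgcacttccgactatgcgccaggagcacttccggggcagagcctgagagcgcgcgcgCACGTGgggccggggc

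Their levels were close in both libraries. NAT10 stood at 8.98 FPKM with IRF3 siRNA and 8.21 with YAP siRNA, a log2 ratio of 0.12. EBNA1BP2 stood at 17.6 and 16.4 FPKM, a log2 ratio of 0.09, and CIRH1A at 7.45 and 7.14 FPKM, a log2 ratio of 0.05. The interval of the count ratio included 1 for EBNA1BP2 (0.996 to 1.15) and CIRH1A (0.950 to 1.15), and began at 1.005 for NAT10 (1.005 to 1.19).

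CHAC1, an enzyme that degrades glutathione and is induced by ATF4 when amino acids are short or the ER is stressed, was also low with YAP siRNA. It stood at 12.2, 10.9 and 5.77 FPKM with control, IRF3 and YAP siRNA, a log2 ratio of 0.82 (count ratio 1.89, interval 1.69 to 2.12). It was the single member past 1.5-fold among 37 compared ATF4 and amino acid stress genes, whose median was -0.02. DDIT4 (-0.28), CEBPG (-0.27) and SLC6A9 (0.27) followed, all within 1.5-fold. The amino acid response element, searched as TGATGNAA on both strands, was present in 5 of the 28 members with a promoter entry (17.9%), beside 1.59% of all genes with one. The median log2 ratio of those members was 0.10 with the match and -0.03 without, and over all genes it was -0.03 and -0.0042. The promoter of CHAC1 is shown because it holds 1 such match and belongs to the one member past 1.5-fold; the match, here on the opposite strand, is in capitals (RefSeq, GRCh38.p14, chr15:40953221-40953470, plus strand).
CHAC1: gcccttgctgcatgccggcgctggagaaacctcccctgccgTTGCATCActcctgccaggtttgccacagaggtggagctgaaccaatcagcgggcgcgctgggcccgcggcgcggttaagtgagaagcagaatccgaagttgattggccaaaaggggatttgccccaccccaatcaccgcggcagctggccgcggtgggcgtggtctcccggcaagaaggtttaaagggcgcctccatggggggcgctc

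The immediate early genes, which are transcribed within minutes of a growth or stress signal, held the second lowest ratio among the 8 lower protein-coding genes with no shared exons. IER2 (ENSG00000160888, chromosome 19, 13150415 to 13154908) stood at 7.01 FPKM with control siRNA, 6.93 with IRF3 siRNA and 24.5 with YAP siRNA. Its log2 ratio was -1.68 and its count ratio 0.283 (0.259 to 0.309), so the YAP siRNA library was the high one and the control equalled the IRF3 siRNA library. No other member of the 32 compared passed 1.5-fold. JUN had -0.42, and EGR1 (0.38, from 79 and 48 counts) and ZFP36L1 (0.39) were on the other side. The list median was -0.05, with 21 below and 11 above the median of all genes. A cyclic AMP response element (TGACGTCA, both strands) was present in 3 of 28 promoters of this list (10.7%, beside 3.48% of all), and a CArG box in 2 (7.14%, beside 1.02%). The list's median log2 ratio was -0.13 with the first motif and -0.03 without it, and 0.24 with the second and -0.06 without it. Feedback regulators of receptor tyrosine kinase signalling had a median of -0.02 over 11 compared, and receptor tyrosine kinases 0.00 over 19, none past 1.5-fold in either. The adaptors between receptor and RAS, named after their values were seen, stood on opposite sides. SHC1 had 0.83 (0.49 summed with PYGO2) and GRB2 had -0.64.

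Single genes of the ubiquitin system differed. UBB (ENSG00000170315, chromosome 17, 16380798 to 16382745), a polyubiquitin gene, stood at 107 FPKM with control siRNA, 122 with IRF3 siRNA and 229 with YAP siRNA, a log2 ratio of -0.90 (count ratio 0.535, interval 0.521 to 0.548). The YAP siRNA library was the high one for UBB, with the control near IRF3 siRNA. The list of 21 compared ubiquitin and ubiquitin-like precursor genes had a median of 0.02, with 11 above and 10 below the median of all genes. How the authors assigned reads that match more than 1 such gene is not stated in the labels.

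The conjugating enzymes UBE2D2 (13.6, 13.5 and 27.3 FPKM, log2 ratio -0.96) and UBE2G2 (4.57, 3.60 and 1.68 FPKM, log2 ratio 0.78), both named after their values were seen, differed in direction. ZFAND5, a zinc finger protein that stimulates the proteasome, had -0.87 and was named in the same way. The proteasome itself had no member of 48 past 1.5-fold and a median of -0.03, from PSMD10 at -0.50 to PSMB2 at 0.22.

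The replication-independent histone H3 variant is encoded by H3F3A and H3F3B. H3F3A (ENSG00000163041, chromosome 1, 226061851 to 226072001) stood at 10.1 FPKM with control siRNA, 14.4 with IRF3 siRNA and 7.41 with YAP siRNA, a log2 ratio of 0.87. H3F3B, given as its partner and sharing exons with UNK, stood at 26.4 FPKM with IRF3 siRNA and 26.7 with YAP siRNA, a log2 ratio of -0.02. Their counts summed to a ratio of 1.08 (1.04 to 1.12), so the gene with the lower level carried the difference. The other compared replication-independent variants had log2 ratios from -0.05 (H2AFZ and H1F0) to 0.10 (CENPA).

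Among cell cycle genes, CCND3, a G1 cyclin, stood at 9.21 FPKM with control siRNA, 5.53 with IRF3 siRNA and 10.03 with YAP siRNA, a log2 ratio of -0.76 (count ratio 0.552, interval 0.514 to 0.592). It was the single member past 1.5-fold among 20 compared G1 genes, beside 2.56% of all genes. The list median was -0.04, with 14 below the median of all genes. The CDK inhibitors differed in direction, with CDKN1B at 0.44, CDKN2A at -0.40 and CDKN2B at -0.39. Mitotic genes had a median of 0.02 over 51 compared, with CDCA5 the single one past 1.5-fold and PLK1 at 0.42. Replication genes had a median of 0.04 over 50. Of 24 compared p53 genes, PLK2 passed 1.5-fold (-0.64), and DNA repair genes and apoptosis genes had no member past it, with medians of -0.01 and -0.02.

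Each list of mitochondrial genes had a single member past 1.5-fold. MT-ND1, a subunit of complex I encoded in the mitochondrial genome, stood at 11.3 FPKM with control siRNA, 13.6 with IRF3 siRNA and 7.20 with YAP siRNA, a log2 ratio of 0.83 from 194 and 99 counts. Of 13 protein-coding genes of that genome 8 were compared, with a median of 0.16 and 7 above the median of all genes. With the trend in GC content, length and level taken out, the median was 0.19, with all 8 above. After MT-ND1 came MT-ND3 (0.24) and MT-CYB (0.22), at far higher levels. MT-ND3 stood at 1491 FPKM with IRF3 siRNA and 1263 with YAP siRNA. MT-ATP6 and MT-ATP8 had 0 counts in both libraries, while nuclear copies of them on chromosome 1 were counted. Whether reads of MT-ND1 and the other members were also assigned to nuclear copies was not tested. Nuclear genes of the respiratory chain had a median of 0.01 over 77 compared, and COX4I1, a subunit of cytochrome c oxidase, was the one past 1.5-fold. COX4I1 stood at 24.3, 15.1 and 30.0 FPKM, a log2 ratio of -0.95, or -0.79 when summed with EMC8, whose exons it shares. Mitochondrial ribosomal protein genes had a median of -0.0032 over 78. MRPS16 alone passed 1.5-fold (-0.64), and it gave -0.38 summed with DNAJC9. CYB5B (0.82) and ALDH4A1 (0.86, or 0.55 with overlapping genes summed), both mitochondrial enzymes, were named after their values were seen.

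**Figure D3:**
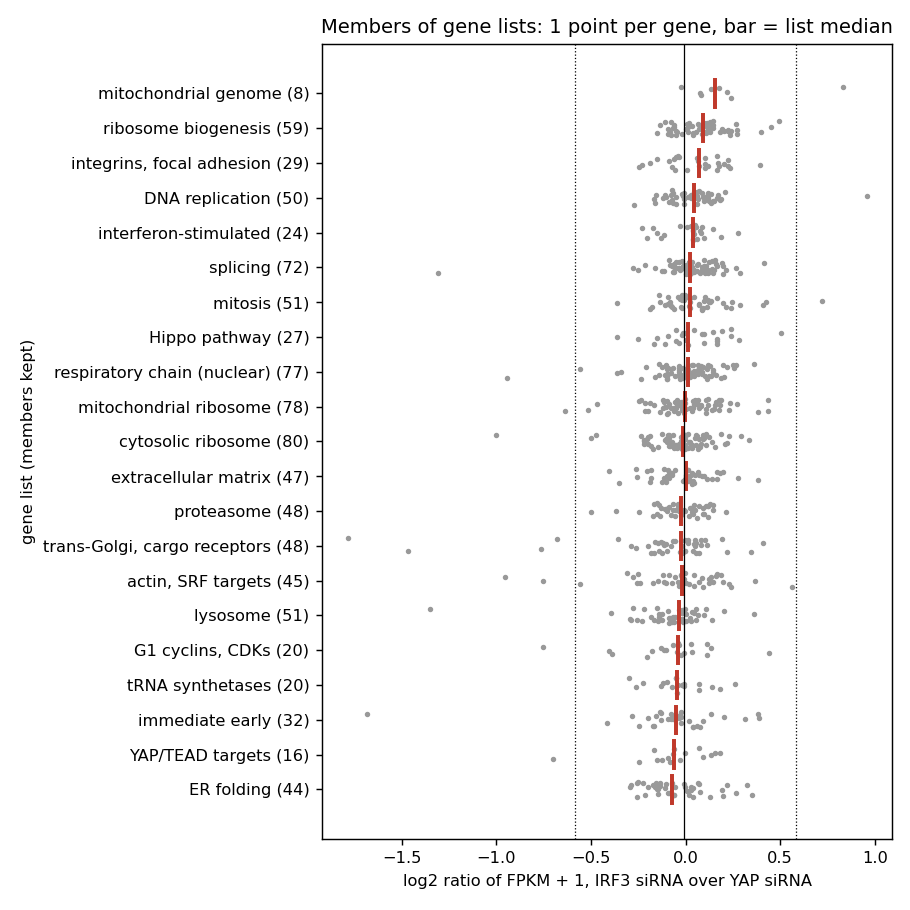
Log2 ratio of FPKM + 1, IRF3 siRNA over YAP siRNA, of the compared members of 21 gene lists (1 point per gene, jittered vertically); red bars are list medians, the solid line is the median of all genes and dotted lines mark 1.5-fold. List medians run from -0.07 (ER folding) to 0.16 (mitochondrial genome), and the differences past 1.5-fold are single genes.

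The lists closest to the targeted proteins had medians near 0. Of 24 YAP/TEAD target genes 16 were compared, with a median of -0.06, 6 above and 10 below the median of all genes. CYR61 stood at 6.15 FPKM with control siRNA, 6.72 with IRF3 siRNA and 5.80 with YAP siRNA, a log2 ratio of 0.18, and CTGF at 1.502, 1.40 and 1.16 FPKM, a log2 ratio of 0.15. The intervals of their count ratios were 0.979 to 1.37 and 0.778 to 1.89 and included 1, so no difference was detectable at these counts. TGFB2 (-0.25) and PTPN14 (-0.17) were on the other side. The member past 1.5-fold was NDRG1, a stress and hypoxia response gene, at 17.4, 10.4 and 17.6 FPKM and a log2 ratio of -0.70, low in the IRF3 siRNA library. The letters GGAATG, searched on both strands as a TEAD motif, were present in 4 of 10 promoters of the list (40%), beside 10.3% of all. The median log2 ratio was -0.16 for those 4 members and 0.03 for the 6 without the letters. Hippo pathway components had a median of 0.01 over 27 compared. YAP1 was their highest member and TEAD2 (-0.36) their lowest.

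Interferon-stimulated genes had 24 of 52 members compared, a median of 0.04 and none past 1.5-fold, with 17 above and 7 below the median of all genes. IFI35 (0.28) and TRIM21 (0.19) were the highest, and IFI6 (-0.23) and EIF2AK2 (-0.21), the RNA-activated kinase PKR, the lowest. The nucleic acid sensors and their relays to IRF3 had 11 of 24 compared and a median of -0.01. TRIM56 (0.41) was their highest member, and IRF3 their lowest. NF-kB target genes had 8 of 9 compared members above the median of all genes, but 4 of 9 with the trend in GC content, length and level taken out.

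Transcription factors and growth factors outside those lists added single differences. RXRA, the retinoid X receptor, stood at 5.73, 11.5 and 6.12 FPKM with control, IRF3 and YAP siRNA, a log2 ratio of 0.81. RUNX3 stood at 4.05, 2.98 and 1.12 FPKM (0.91) and FOXD1 at 17.7, 15.8 and 8.44 FPKM (0.84). RXRA was high with IRF3 siRNA, whereas RUNX3 and FOXD1 were lowest with YAP siRNA. All 3 were named after their values were seen. The fetal growth factor gene IGF2 stood at 4.56, 1.46 and 3.36 FPKM, a log2 ratio of -0.82 (-0.72 summed with IGF2-AS), while the median of the IGF list was 0.03. SAC3D1, a centrosomal protein, had 0.90, and CDIPT, which makes phosphatidylinositol, had 0.92 and shares exons with CDIPT-AS1. In each of these genes the direction held with overlapping genes summed.

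Long noncoding RNAs held a further 4 genes past 1.5-fold among 25 compared, 2 in each direction, beside 2.56% of all genes. This list too was drawn up with earlier results of these data known. DANCR (ENSG00000226950, chromosome 4, 52712404 to 52720351), a snoRNA host transcript, stood at 25.6 FPKM with control siRNA, 26.1 with IRF3 siRNA and 62.7 with YAP siRNA, a log2 ratio of -1.23 (count ratio 0.417, interval 0.387 to 0.448). Like IER2 and UBB it was high in the YAP siRNA library alone. SNHG3 had -0.59, which became -0.24 summed with RCC1. SNHG19 had 0.65, and RMRP, the RNA of the mitochondrial RNA processing RNase, had 0.67 from 42 and 24 counts, with an interval of its count ratio (0.997 to 2.91) that included 1.

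Several of the widest ratios belonged to entries whose reads have a second home. MTATP6P1 and MTATP8P1, nuclear copies of mitochondrial sequence that overlap on chromosome 1, had log2 ratios of 5.72 and -5.21. MTATP6P1 had 4025 counts with IRF3 siRNA against 64 with YAP siRNA, and MTATP8P1 had 3 and 214. The count ratio of MTATP8P1 was 0.0135 (0.00276 to 0.0400). Summed, they gave 3.69, while MT-ATP6 and MT-ATP8 had 0 counts in both libraries. The ferritin pseudogene FTH1P10 had 342 counts with IRF3 siRNA and 4 with YAP siRNA (3.79), while FTH1 itself had 0.03. RABL6 was listed under 2 identifiers, at 3.12 and -1.26, and their counts summed to a ratio of 0.823 (0.780 to 0.867). TOMM6, a subunit of the mitochondrial import pore, had 1.61, and -0.034 when summed with its overlapping genes. NDUFC2-KCTD14 had 1.01 (summed 0.01), RAVER1 0.97 (0.38) and ARHGEF18 0.97 (-0.15). MIF (-0.97), NIPSNAP1 (-0.998) and the splicing factor SRRM2 (-1.31) kept their direction at -0.58, -0.58 and -0.85. TXNDC5, a protein disulfide isomerase, had 0.70, and 0.64 with the readthrough gene BLOC1S5-TXNDC5, which had 220 counts with IRF3 siRNA and 0 with YAP siRNA.

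Taking all 51 gene lists, 1584 of 1944 listed genes were compared and 32 of them (2.02%) passed 1.5-fold, 13 higher and 19 lower, beside 2.56% of all genes. The listed share was thus near that of all genes. Of the 49 lists with at least 5 compared members, 47 had a median within 0.1 of 0. The exceptions were the mitochondrial genome (0.16) and epithelial markers (-0.12), of which 9 of 35 were compared. In 23 lists no member passed 1.5-fold, among them translation factors (median 0.01), heat shock chaperones (-0.03), chromatin enzymes (0.02) and NRF2 and glutathione genes (0.01). Splicing genes had a median of 0.02 with 49 of 72 above the median of all genes.

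The ratio varied with the base composition of transcripts. In 10 equal groups ordered by GC content, genes of the lowest group (median 38.2%) had a median log2 ratio of -0.05 and those of the highest (64.9%) one of 0.07. The lowest median, -0.06, was in the third group. Across the 10829 genes with a length and GC content, Spearman's rho was 0.27. Genes are not replicates, and all points share the same 2 libraries. With exon length rho was 0.01, but genes past 1.5-fold were most frequent among the shortest genes. In the shortest of 10 equal groups by exon length (75 to 988 bases), 64 were higher and 57 lower, 11.2% of the group. This share was 2.86% in the next group and 0.646% in the longest. A trend in level, length and GC content accounted for 3.19% of the variance of the log2 ratio. Its part in the list medians was measured by removing it, and no list median moved by 0.1. With 47 of 49 medians within 0.1 of 0, that limit is coarse. Extracellular matrix genes went from a median of 0.00 to -0.04, with 26 and then 15 of 47 above the median of all genes.

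**Figure D4:**
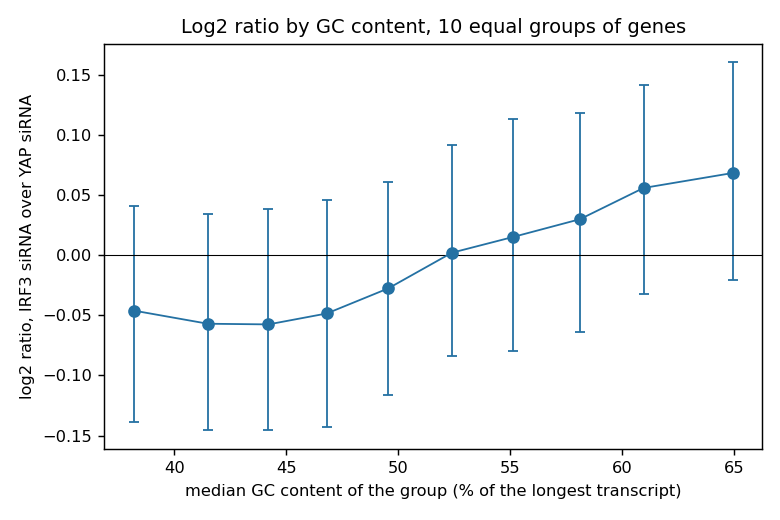
Median log2 ratio (IRF3 siRNA over YAP siRNA, points) and quartiles (bars) of 10 equal groups of genes ordered by GC content, plotted at each group's median GC content. The medians are -0.05 to -0.06 in the 4 groups of lowest GC content, with the lowest in the third, and 0.07 in the group of highest.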

How the data were processed

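For each of 3 libraries the authors deposited FPKM and raw counts per gene in 1 table, per the file headers. TopHat2 version 2.0.9 and build hg38 are named by the submitters' processing notes. How strand and reads with several matches were treated in counting is not given in the labels. A length per gene was worked back from its count and FPKM in the library with the most counts. With that length and the column totals, counts in the remaining libraries gave the deposited FPKM to within 1% for all 45223 values checked. The check covers the scaling between libraries only, and the authors' gene lengths were not compared with annotated exon lengths.

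Log2 ratios used FPKM plus a pseudocount of 1, and genes averaging at least 1 FPKM in the IRF3 and YAP siRNA libraries were kept. Genes past 2-fold or 1.5-fold on this scale were counted. Count ratios are of counts per library total, with a 95% exact (Clopper-Pearson) interval of the pair's share. It covers counting error only, and with 1 library per condition the spread between cultures is not in it. Since PCR copies are not independent molecules, it may be too narrow even for counting error.

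Exon sharing (a partner with at least 1% of the gene's counts), exon length and GC content came from GENCODE 29, where 94.0% of genes had identical coordinates. Summed log2 ratios took all genes joined by overlapping exons, directly or through another gene, over their joint exon length. They can include genes beyond the named partner. The change of length also alters the weight of the pseudocount. TGOLN2, with no partner, went from -1.78 to -2.15. The trend was an additive spline with 4 degrees of freedom per property. Promoters came from RefSeq (GRCh38.p14), matched by symbol for 7820 genes.

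The members and the 51 gene lists were chosen with earlier results of these data known. Genes were named by a rule. It took the 12 largest ratios in each direction at a mean of at least 5 FPKM (no small RNAs or clone-based symbols). It also took up to 4 members per list with the largest ratios, every member past 1.5-fold, both targets, MYC, CTGF and CYR61. Some genes named by this rule are not reported here. Others are marked where they appear, or are partners, markers or sequence examples beside a named gene.

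Alternatives were a smaller pseudocount (0.1), a higher filter (5 FPKM) or none, centring on the median gene, TMM scaling (edgeR 4.0.16), median-of-ratios scaling (DESeq2 1.42.0), summing over overlapping genes, trend removal and protein-coding genes only. Python 3.11.15, numpy 2.4.6, pandas 2.3.3, scipy 1.17.1, patsy 1.0.2, matplotlib 3.10.9 and R 4.3.3 were used.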

Additional observations from a re-analysis of the deposited data

How the results depend on the processing

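With 1 library per condition, none of these values has a replicate check, and no library could be left out. No paired analysis was possible because each condition had 1 library. Of genes at least 2-fold higher with IRF3 siRNA (36) and lower (36), a pseudocount of 0.1 gave 84 and 77, a filter of 5 FPKM 11 and 14, protein-coding genes only 19 and 21, and counts summed over overlapping genes 15 and 20. At 1.5-fold (134 higher and 144 lower), the same settings gave 239 and 280, 42 and 56, 67 and 82, and 81 and 101, while no filter gave 259 and 275. Summing reversed TOMM6 to -0.034, ARHGEF18 to -0.15 and MTATP8P1 to 3.69. Of 64 named genes past 1.5-fold or 2-fold, centring, TMM and median-of-ratios scaling each left 62 past their fold (not SNHG3 and RPLP1), trend removal 60 of 63, and summing 47 of 63. No list median moved by 0.1 in any of these settings, a coarse limit where 47 of 49 medians lay within 0.1 of 0. The depth limits genes such as RMRP and CTGF, whose counting intervals included 1.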
